A study of Rattus norvegicus with 14 samples.

Results

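The calcium/calmodulin-dependent kinases (CaM kinases) on a rat hippocampal array were followed in learning and control animals as a set of 9 genes. They were the 4 subunits of CaM kinase II (Camk2a, Camk2b, Camk2d and Camk2g), Camk1 and Camk4, the upstream kinases Camkk1 and Camkk2, and the inhibitor gene Camk2n1. Members were all probe sets that the platform annotation assigns to 1 of these genes alone, which gave 17 of the 15923 probe sets in the table, and 6 of the 9 genes had more than 1. Of the 17, 13 were bright enough to be tested and 4 were dim, that is, had a mean log2 level under 3.88, the 40th percentile of the array. No gene was represented by dim probe sets alone.

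RNA came from microdissected CA3 of young male Long-Evans rats aged 3 to 4 months, with 1 Affymetrix RAE230A array for each of 7 learning and 7 control animals. All 14 rats had been trained in a standard water maze 2 to 3 weeks earlier and then swam 8 trials, 8 min apart, in a different maze. The learning rats had a visible platform in a constant place among spatial cues, while for the control rats the visible platform was moved and no informative cues were present. Every rat was given a 90 s probe trial 1 h afterwards and the tissue was taken directly after it. Both groups therefore swam, saw a platform and took the probe trial, and the effects of cues and of platform movement cannot be told apart. The comparison asks which CA3 transcripts differ after rapid learning of a new place.

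CaM kinases are serine/threonine kinases that are switched on when calcium enters a cell and binds calmodulin. CaM kinase II is a multi-subunit holoenzyme, very abundant at excitatory synapses, whose alpha and beta subunits dominate in forebrain neurons and which can stay active after autophosphorylation; its activity is needed for long-term potentiation at many hippocampal synapses. CaM kinases I and IV act instead in a cascade in which the CaM kinase kinases phosphorylate and activate them, and CaM kinase IV in the nucleus phosphorylates the transcription factor CREB.

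The promoters of Camk2a and Camk2b are shown because these genes encode the main neuronal subunits. Probe sets of Camk2a, but none of Camk2b, reached an adjusted p under 0.05. Another Camk2a probe set, 1389824_at, had a log2 change of 0.04, between the Camk2b values of 0.14 and -0.02. The windows are the 250 bases before the gene start in RefSeq's table for rat assembly GRCr8, which held an entry for 7 of the 9 members. Camk2a lies on the plus strand, with the window at chr18:56648930-56649179, and Camk2b on the minus strand, with the window at chr14:85147945-85148194. Capitals mark TGACG or its reverse complement CGTCA, the core of the cAMP response element (CRE) to which CREB binds, searched on both strands.
Camk2a promoter: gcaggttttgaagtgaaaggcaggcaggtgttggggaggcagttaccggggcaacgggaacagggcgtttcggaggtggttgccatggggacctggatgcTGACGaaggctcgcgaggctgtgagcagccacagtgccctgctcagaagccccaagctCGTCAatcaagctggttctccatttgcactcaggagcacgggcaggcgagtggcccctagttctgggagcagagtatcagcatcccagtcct
Camk2b promoter: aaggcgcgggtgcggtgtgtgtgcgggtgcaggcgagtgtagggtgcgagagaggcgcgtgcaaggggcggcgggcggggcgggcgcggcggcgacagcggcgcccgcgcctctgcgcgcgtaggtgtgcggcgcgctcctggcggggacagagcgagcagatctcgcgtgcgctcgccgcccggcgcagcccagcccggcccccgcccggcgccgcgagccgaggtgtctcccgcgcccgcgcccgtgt
The Camk2a window held 2 such motifs, beginning 150 and 92 bases before the gene start, and the Camk2b window held 0. Of the 7 members with a window, 3 held the motif (Camk2a, Camk1 and Camkk1), while 18.2% of 33469 windows in the table held it. The full CRE, TGACGTCA, which contains both letter strings overlapping each other, was in 0 of the 7 and in 1.59% of all windows. The Camk2b window had a GC content of 80.4% and the Camk2a window 60.4%, against a median of 51.2% over all windows. A match of letters is a description of the window and shows no binding.

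Of the 13 tested CaM kinase probe sets, 3 rose in learning CA3 and 0 fell, 2 of Camk2a and 1 of Camk2n1. Over the whole array 2.55% of the 9520 tested probe sets rose and 3.35% changed in either direction (limma, Benjamini-Hochberg adjusted p under 0.05). At an unadjusted p under 0.05, 5 of the 13 differed, against 19.9% of all tested probe sets. The median log2 change of the 13 was 0.14, with 10 above 0 and 3 below, while over all tested probe sets the median was -0.02 and 41.96% were above 0. The other 7 genes had no probe set past the threshold.

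**Figure D1:**
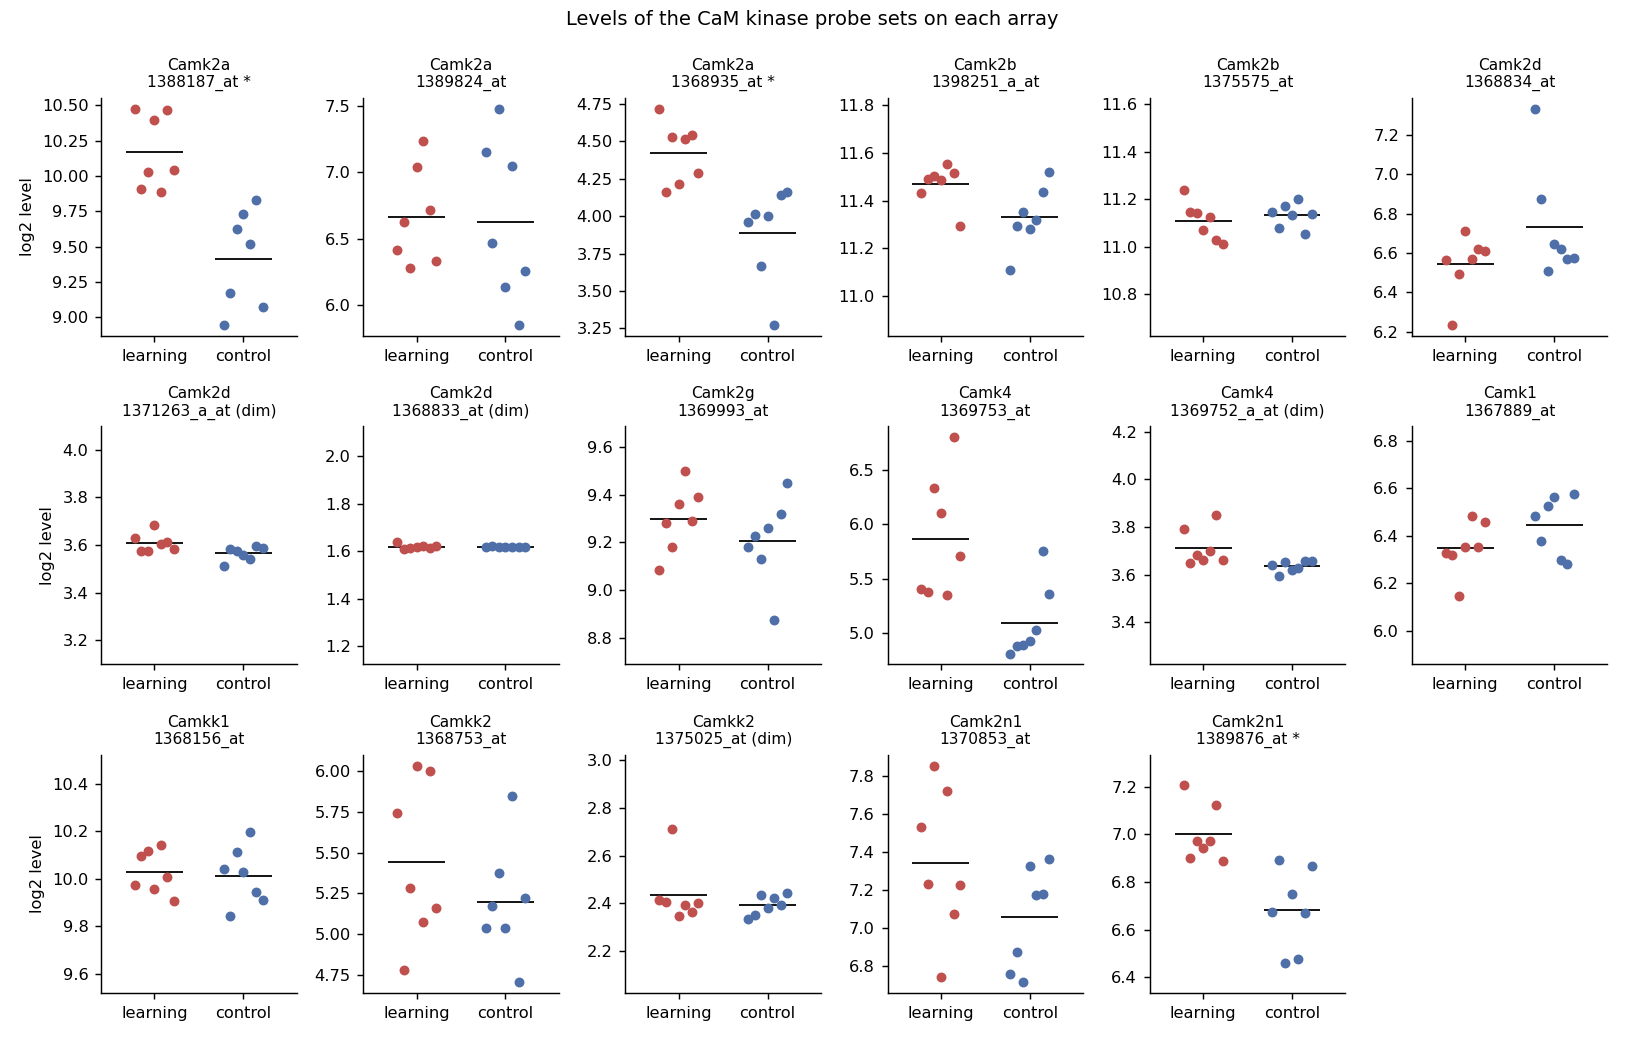
Log2 level of each of the 17 CaM kinase probe sets (vertical axis, with its own range of at least 1 log2 unit in each panel) on the 7 learning arrays (red) and the 7 control arrays (blue); points are animals, black lines are group means, an asterisk marks an adjusted p under 0.05 and "dim" a probe set left out of the tests. The learning points of Camk2a 1388187_at and 1368935_at all lie above the control points, while those of Camk2a 1389824_at, Camkk1 and Camk1 overlap with them.

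Camk2a, the alpha subunit of CaM kinase II and a gene expressed in excitatory neurons of the forebrain, gave the clearest difference among the members. At its brightest probe set, 1388187_at, the learning arrays ran from 9.88 to 10.47 on the log2 scale with a median of 10.04, and the control arrays from 8.94 to 9.83 with a median of 9.52. Every learning animal was above every control animal, a separation in this direction that 1.73% of the tested probe sets showed. The means were 10.17 ± 0.26 in learning and 9.41 ± 0.35 in control animals (SD, n = 7 each), a log2 change of 0.76 (SE 0.15, limma adjusted p = 0.0150) or 1.69-fold with a 95% interval of 1.36 to 2.11. In a bulk sample, more cells of a type and more RNA per cell cannot be told apart. Leaving out any single array kept the call, with log2 changes of 0.68 to 0.83.

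A second Camk2a probe set, 1368935_at, whose source is a RefSeq transcript, was close to the detection range of the array. Its learning values ran from 4.16 to 4.72 with a median of 4.52, and its control values from 3.27 to 4.16 with a median of 4.00. The groups did not overlap, but the lowest learning value of 4.164 was next to the highest control value of 4.163, and 2 control arrays lay under the dim cutoff. The log2 change was 0.54 (SE 0.13, limma adjusted p = 0.0381), 1.45-fold with a 95% interval of 1.20 to 1.76. Leaving out single arrays gave 0.43 to 0.58, and the threshold was passed only without learning replicate 2 or control replicate 5, 6 or 7. The log2 change was 0.14 with the probe set balance, defined with the other array measures below, as a covariate (adjusted p = 0.821).

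The remaining Camk2a probe set, 1389824_at, ran from 6.28 to 7.23 in learning animals with a median of 6.63, and from 5.85 to 7.48 in control animals with a median of 6.47. Control animals thus lay both above and below all learning animals, and the group means were 6.66 ± 0.36 and 6.63 ± 0.60 (SD, n = 7 each). The log2 change was 0.04, with a 95% interval of -0.48 to 0.55 (limma adjusted p = 0.953), which includes 0 and the change of 1368935_at but not that of 1388187_at.

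Camk2b encodes the beta subunit, which also binds actin, and neither of its probe sets passed the threshold. Probe set 1398251_a_at ran from 11.29 to 11.55 in learning animals with a median of 11.49, and from 11.11 to 11.52 in control animals with a median of 11.32. The learning animals were higher in 6 of 7 cases than the control mean, but the groups overlapped and the log2 change of 0.14 (95% interval 0.01 to 0.26) did not pass the threshold (limma adjusted p = 0.196). At 1375575_at learning animals averaged 11.11 ± 0.08 and control animals 11.13 ± 0.05 (SD, n = 7 each), with a log2 change of -0.02 and a 95% interval of -0.11 to 0.06 (adjusted p = 0.796). A change of Camk2b at 1375575_at as large as that of Camk2a at 1388187_at lies outside this interval.

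The gamma and delta subunits, which are also made in many non-neuronal tissues, had values without a call. Camk2g at 1369993_at was 9.30 ± 0.14 in learning and 9.21 ± 0.18 in control animals, a log2 change of 0.09 with a 95% interval of -0.08 to 0.26 (limma adjusted p = 0.558). Camk2d at 1368834_at ran from 6.23 to 6.71 in learning animals and from 6.51 to 7.33 in control animals. Its medians were 6.57 in learning and 6.62 in control animals, and all 7 learning animals were under the control mean, with control replicate 1 the highest at 7.33. The log2 change was -0.19 (95% interval -0.43 to 0.05, adjusted p = 0.373), and -0.09 without control replicate 1. The other Camk2d probe sets were dim, with means of 3.61 in learning and 3.57 in control animals at 1371263_a_at and of 1.62 in both groups at 1368833_at.

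Camk2n1 encodes a small protein that binds the active kinase domain of CaM kinase II and inhibits it. At 1389876_at its learning values ran from 6.89 to 7.21 with a median of 6.97, and its control values from 6.46 to 6.89 with a median of 6.67. In 6 of 7 learning animals the level was above every control animal. The means were 7.00 ± 0.12 in learning and 6.68 ± 0.17 in control animals (SD, n = 7 each), a log2 change of 0.32 (SE 0.07, limma adjusted p = 0.0336) or 1.25-fold with a 95% interval of 1.12 to 1.39. The brighter probe set 1370853_at overlapped widely, with 6.74 to 7.85 in learning and 6.71 to 7.36 in control animals. Its log2 change of 0.28 was of like size with a wider 95% interval of -0.06 to 0.63 (adjusted p = 0.349). For 1389876_at the call was lost with the probe set balance as a covariate (0.17, adjusted p = 0.651). The spike-in level (adjusted p = 0.158), Gapdh ratio (0.142), dentate level (0.0992) and hexokinase ratio (0.0679) as covariates lost it too. So did a fit with no dim filter (adjusted p = 0.0748) and one with a replicate block (0.0699). Without the 3 arrays farthest from their group mean, named below, it was 0.25 and not called (adjusted p = 0.177). The call was also lost without any one of learning replicates 1, 3, 4, 5 and 6 or control replicates 1, 3 and 5 (0.28 at the lowest).

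Camk4 encodes the nuclear kinase that phosphorylates CREB, and its change on the log2 scale was the highest of the members without a call. At 1369753_at the learning values ran from 5.35 to 6.80 with a median of 5.71, and the control values from 4.81 to 5.75 with a median of 4.92. All 7 learning animals were above the control mean and 3 were above every control animal. The means were 5.87 ± 0.56 in learning and 5.09 ± 0.34 in control animals (SD, n = 7 each), a log2 change of 0.78 with a 95% interval of 0.30 to 1.26 (limma adjusted p = 0.0710). Control replicate 6, at 5.75, was the highest control array, and without it the log2 change was 0.89 and passed (adjusted p = 0.0395). It passed in only this 1 of 14 fits with a single array left out, and was 0.62 without learning replicate 6 (adjusted p = 0.107). Without the 3 arrays farthest from their group mean, named below, it was 0.55 (adjusted p = 0.265). With the probe set balance as a covariate it was 0.44 (adjusted p = 0.735). The second probe set, 1369752_a_at, was dim, with means of 3.71 in learning and 3.64 in control animals and a log2 change of 0.08 in the fit without the filter (adjusted p = 0.252).

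Camk1, the cytosolic kinase of the cascade, had 6.35 ± 0.11 in learning and 6.44 ± 0.12 in control animals at 1367889_at (SD, n = 7 each). The log2 change of -0.09 had a 95% interval of -0.22 to 0.03 (limma adjusted p = 0.408). Camkk1, an upstream activator of both Camk1 and Camk4, ran from 9.91 to 10.14 in learning and from 9.85 to 10.20 in control animals at 1368156_at. Its log2 change of 0.02 had an interval of -0.10 to 0.14 (adjusted p = 0.902). Camkk2, which besides these kinases phosphorylates AMP-activated protein kinase, had 5.44 ± 0.49 in learning and 5.20 ± 0.35 in control animals at 1368753_at, a log2 change of 0.24 with a wide interval of -0.20 to 0.68 (adjusted p = 0.555). Its dim probe set 1375025_at had means of 2.43 in learning and 2.39 in control animals.

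**Figure D2:**
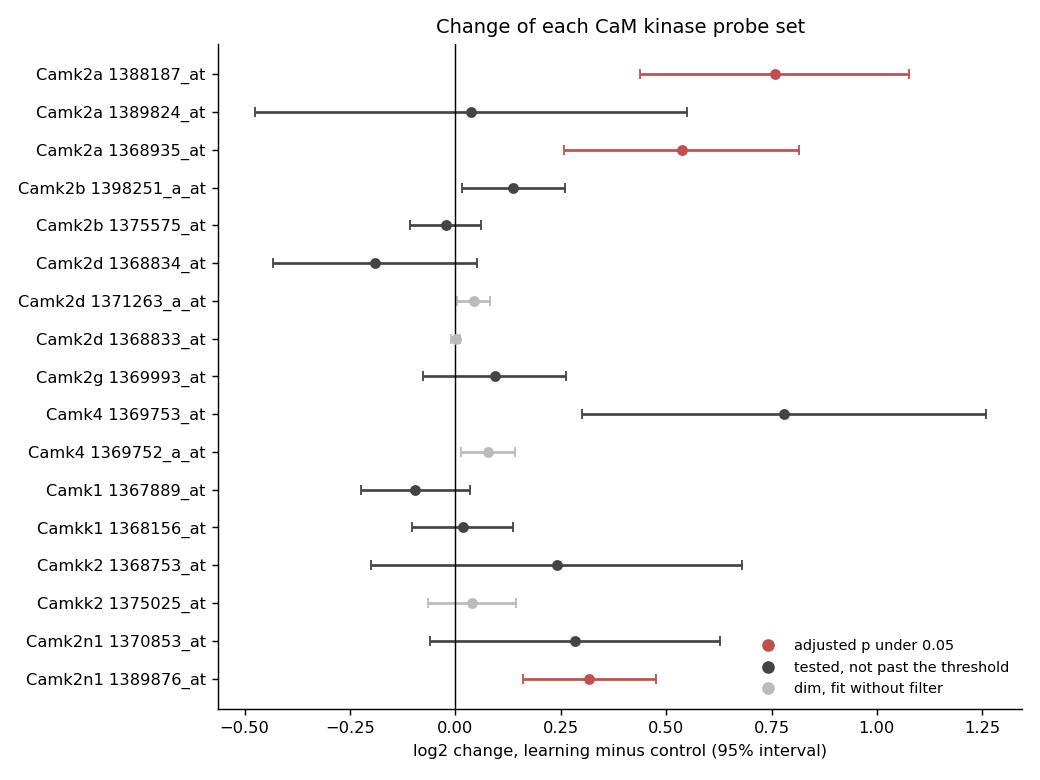
Log2 change, learning minus control, of each CaM kinase probe set (points) with its 95% interval (bars), red where the adjusted p was under 0.05, dark grey where tested without passing and light grey for dim probe sets taken from the fit without a filter. The intervals of Camk2a 1388187_at (0.44 to 1.08), Camk2a 1368935_at (0.26 to 0.81) and Camk2n1 1389876_at (0.16 to 0.48) lie above 0.

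Probe sets of a gene read different stretches of its transcripts, so their changes were set against each other within each array. Over the array, 17.6% of 1130 such pairs differed between the groups (limma on the difference from the brightest probe set of the gene, adjusted p under 0.05), so unequal change of probe sets of 1 gene was common. In 166 of these pairs the dimmer probe set was higher in learning animals relative to the brightest, and in 33 it was lower. Of the 4 CaM kinase pairs, 0 passed, while 2 had an unadjusted p under 0.05, a level that was not counted over the 1130 pairs. For Camk2a, 1389824_at minus 1388187_at was -3.51 ± 0.46 in learning and -2.79 ± 0.77 in control animals (SD, n = 7 each), a difference of -0.72 with a 95% interval of -1.36 to -0.08 (adjusted p = 0.108). Without control replicate 6 this pair passed (adjusted p = 0.0265), the only 1 of 20 alternatives in which it did. Without the 3 arrays farthest from their group mean, named below, the difference was -0.42 (adjusted p = 0.431). The pair 1368935_at minus 1388187_at differed by -0.22 (-0.64 to 0.20, adjusted p = 0.451). For Camk2b, 1375575_at minus 1398251_a_at differed by -0.16 (-0.31 to -0.01, adjusted p = 0.135), and for Camk2n1, 1389876_at minus 1370853_at by 0.03 (-0.31 to 0.38, adjusted p = 0.909).

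The position of Camk2a relative to other members was described by the difference between brightest probe sets on the same array. These pairs were chosen with the change of Camk2a at 1388187_at known, so their values restate that change against each partner and are given with no test. Camk2a minus Camk2b was -1.30 ± 0.28 in learning and -1.92 ± 0.33 in control animals (SD, n = 7 each), a shift of 0.62 with overlapping groups. Camk2a minus Camk2d was 3.63 ± 0.22 in learning and 2.68 ± 0.59 in control animals, a shift of 0.95. The groups did not overlap on it, as at 1388187_at alone, and how often other differences separate the groups was not counted. Camk2a minus Camk2g was 0.87 ± 0.35 in learning and 0.21 ± 0.42 in control animals, a shift of 0.67 with overlapping groups.

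Relative to its inhibitor gene, Camk2a minus Camk2n1 was 2.83 ± 0.56 in learning and 2.36 ± 0.37 in control animals, a shift of 0.47 with overlapping groups. The balance of the upstream kinases, Camkk1 minus Camkk2, was 4.59 ± 0.54 in learning and 4.81 ± 0.29 in control animals, a shift of -0.22 with overlapping groups. The alternatives were single arrays left out, quantile normalization and leaving out the 3 arrays farthest from their group mean. Over these the shift ran from 0.53 to 0.68 against Camk2b, from 0.74 to 1.05 against Camk2d and from 0.57 to 0.75 against Camk2g. It was not computed with the covariates named below. All of the Camk2a shifts rest on 1388187_at, and the one against Camk2d also on the change of -0.19 at Camk2d 1368834_at. The log2 change of Camk2a 1389824_at, 0.04, was below those of Camk2b 1398251_a_at (0.14) and Camk2g (0.09), so the order of the subunits depends on the probe set.

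**Figure D3:**
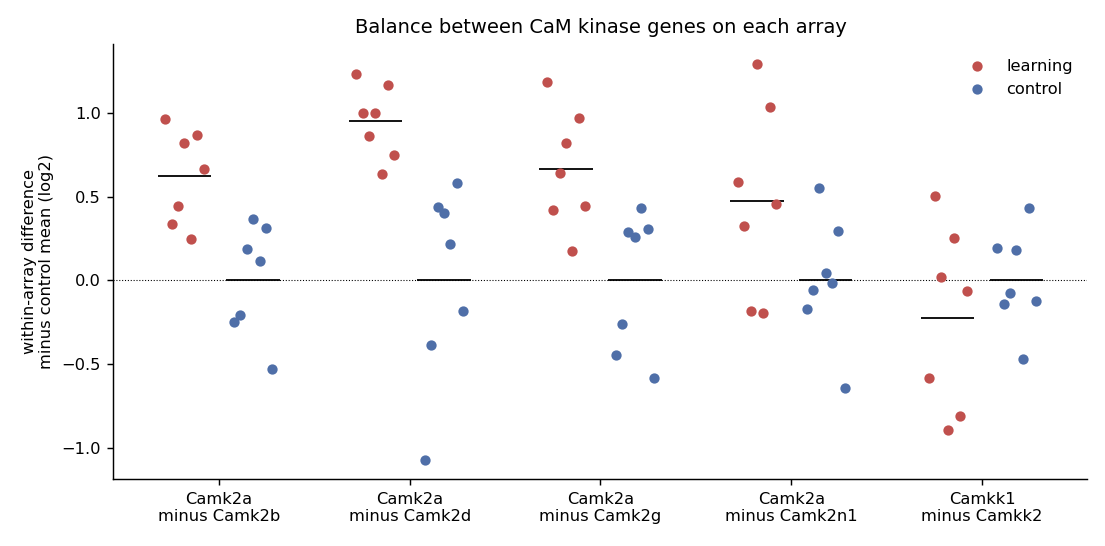
Difference between the brightest probe sets of a pair of CaM kinase genes on each array, minus the control mean of that difference (log2, vertical axis); points are animals, learning in red and control in blue, and black lines are group means. The learning means lie 0.62, 0.95 and 0.67 above the control means for Camk2a against Camk2b, Camk2d and Camk2g, and -0.22 from it for Camkk1 against Camkk2.

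Tissue and array measures are given here for all of these results. Covariate fits used the array measures and, of the marker lists, the dentate level alone. The excitatory neuron, choroid plexus and endothelial lists, which differed between the groups, were not fitted as covariates. The part of these measures in the results was not tested further. The CA3 markers Grik4 (7.94 in learning, 7.95 in control) and Bok (8.85 and 8.84 in the same order) were present, but so were the CA1 marker Wfs1 (8.71 in learning, 8.77 in control) and the dentate marker Prox1 (5.15 in learning, 5.35 in control). Of the other CA3 markers above the dim cutoff, Spock1 rose, with 7.69 ± 0.12 in learning and 7.41 ± 0.12 in control animals (log2 change 0.28, limma adjusted p = 0.0257), and Homer3 had 6.95 ± 0.18 in learning and 6.71 ± 0.48 in control animals (log2 change 0.23, adjusted p = 0.493). The mean of these 4 CA3 markers differed by 0.13 (exact permutation p = 0.0775). The mean of 2 excitatory neuron markers, Slc17a7 and Neurod2, with Camk2a kept out, ran from 9.65 to 9.997 in learning and from 9.27 to 9.69 in control animals (exact permutation p = 0.00408, adjusted over 16 measures p = 0.0210), a difference of 0.24. Of the 7 genes of that list 5 were on the array and 3 above the dim cutoff, Slc17a6 and Tbr1 being dim. Neither Slc17a7 at 0.14 nor Neurod2 at 0.33 passed alone (limma adjusted p = 0.178 and 0.0818). The mean of 5 dentate markers of 9 on the array ran from 7.21 to 7.64 in learning and from 7.16 to 7.83 in control animals (exact p = 0.175). The mean of 5 choroid plexus markers of 9 on the array ran from 5.91 to 6.53 in learning and from 6.48 to 7.95 in control animals (exact p = 0.00117, adjusted p = 0.00932). Most of that difference came from Ttr, with 5.46 ± 0.53 in learning and 7.55 ± 1.05 in control animals (log2 change -2.09, limma adjusted p = 0.0124). Igf2 at -0.80 and Igfbp2 at -0.70 did not pass, and Enpp2 and Kcne2 were at -0.03 and 0.01. The mean of 4 endothelial markers of 6 on the array was 6.19 in learning and 6.38 in control animals (exact p = 0.0117, adjusted p = 0.0373). None of these 4 passed alone, Kdr being the largest at -0.40 (limma adjusted p = 0.0989). The other marker lists, CA3, CA1, CA2, interneuron, astrocyte, oligodendrocyte and microglia, did not pass.

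Among the array measures, the hybridization spike-in level averaged 9.19 ± 0.17 in learning and 8.99 ± 0.12 in control animals (exact permutation p = 0.00524, adjusted p = 0.0210). The 3'/5' ratios are given as log2 values, the 3' minus the 5' log2 level of a control gene. The Gapdh 3'/5' log2 ratio was 0.448 ± 0.051 in learning and 0.512 ± 0.060 in control animals (exact p = 0.0443, adjusted p = 0.118). The probe set balance, the mean over 349 other genes of the dimmest minus the brightest probe set, was -3.24 ± 0.03 in learning and -3.41 ± 0.11 in control animals (exact p = 0.000583, adjusted p = 0.00932). It ran from -3.29 to -3.19 in learning and from -3.65 to -3.33 in control animals. The groups did not overlap on it, so in a fit with this covariate its part and that of the group cannot be told apart. With the spike-in level as a covariate Camk2a 1388187_at had a log2 change of 0.65 (limma adjusted p = 0.0973), with the dentate level 0.67 (adjusted p = 0.0625), and with the probe set balance 0.80 (SE 0.23, adjusted p = 0.416). Without the 3 arrays farthest from their group mean (control replicates 1 and 5 and learning replicate 6) it was 0.64 (adjusted p = 0.0934). Over the alternatives that can alter a difference of group means the log2 change ran from 0.64 to 0.90, while other dim filters, other variance moderation and the replicate number as a block can change its p alone. The call held in 27 of 31 alternatives.

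**Figure D4:**
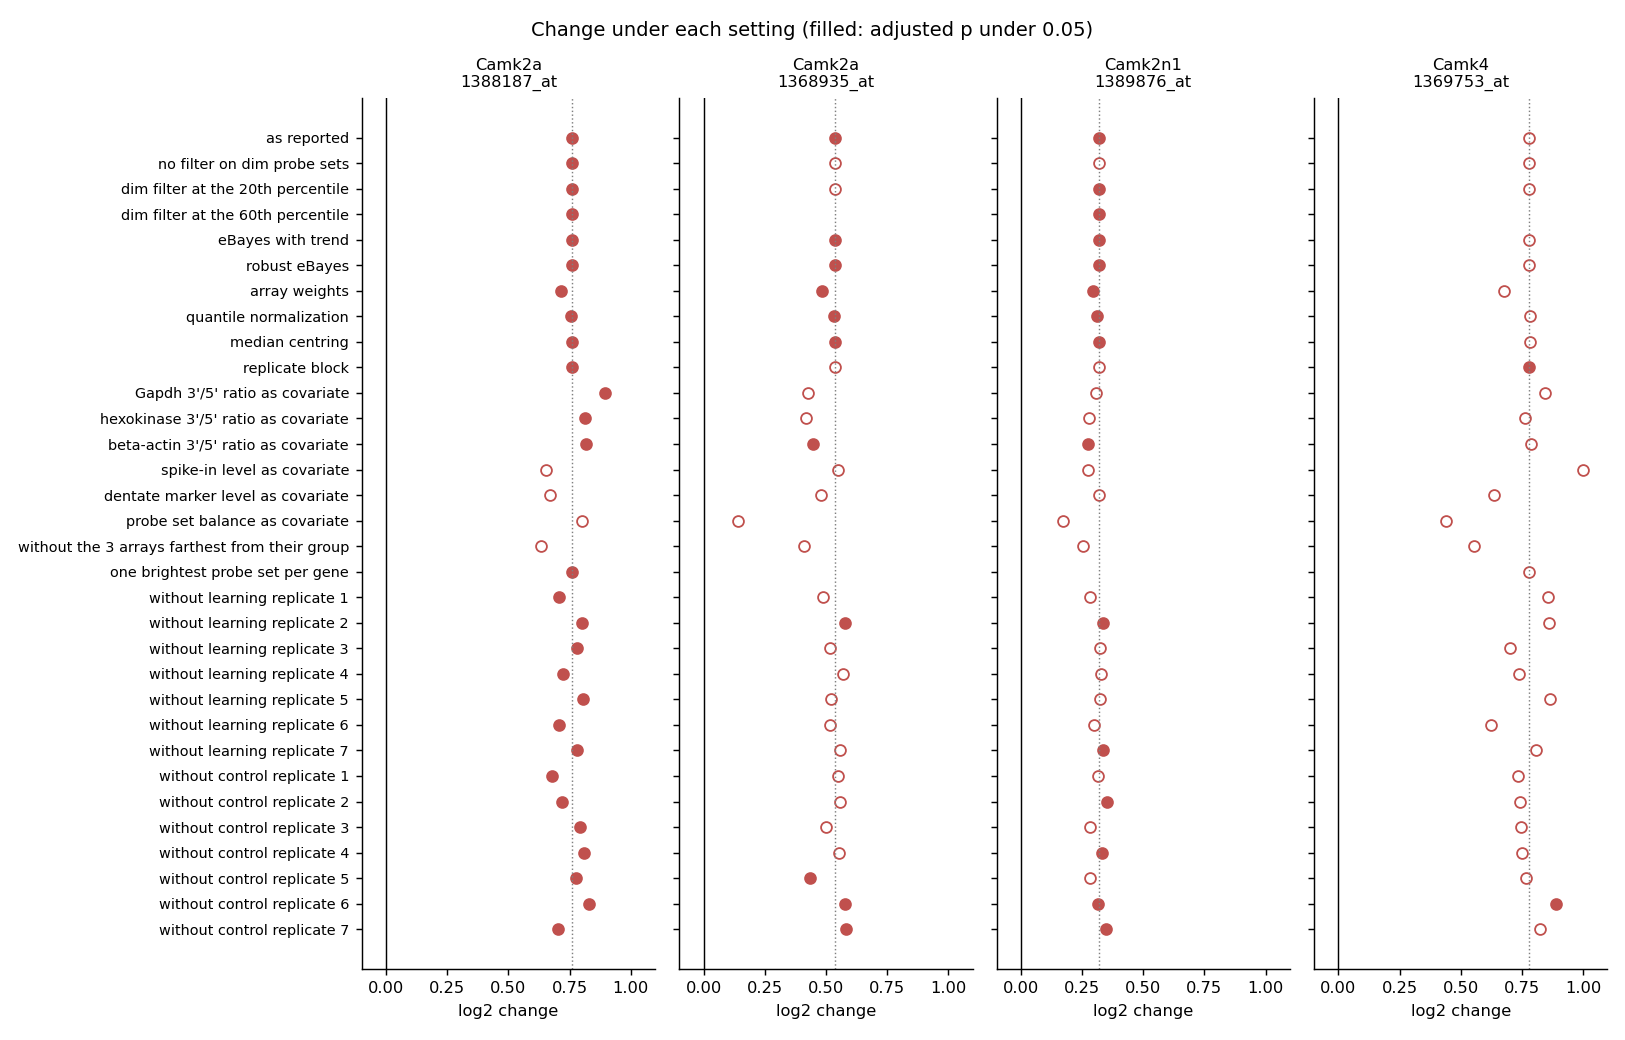
Log2 change, learning minus control (horizontal axis), of 4 CaM kinase probe sets under each setting of the analysis (rows), filled where the adjusted p was under 0.05; the dotted line is the value as reported. Camk2a 1388187_at lies between 0.64 and 0.90, while Camk2a 1368935_at drops to 0.14 and Camk2n1 1389876_at to 0.17 with the probe set balance as a covariate, and Camk4 is filled in 2 of 30 alternatives.

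The genes around the kinases were counted by their brightest probe set in 4 lists, beside 2.57% of 6836 genes on the array that passed and a median log2 change of -0.03 over all of them. At an unadjusted p under 0.05 the share was 19.9% of all tested probe sets. In a fit of the 6836 brightest probe sets alone, 1291 were under it (limma). None of these counts is a test of a list. Of 17 tested genes for calmodulin and its buffers 0 passed, and 4 had an unadjusted p under 0.05; the median was -0.05. Calm2, 1 of the calmodulin genes, had 12.97 ± 0.03 in learning and 12.87 ± 0.07 in control animals, a log2 change of 0.11 (limma adjusted p = 0.0941). Nrgn, or neurogranin, which holds calmodulin at low calcium, had 11.73 ± 0.05 in learning and 11.60 ± 0.06 in control animals, a log2 change of 0.12 (adjusted p = 0.0837). The calcium sensor genes Ncs1 at -0.13 and Hpca at 0.08 did not pass either (adjusted p = 0.188 and 0.358), nor did the calmodulin-binding transcription activator gene Camta2 at -0.11 (adjusted p = 0.143).

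Of 17 tested related kinase genes 0 passed, 3 had an unadjusted p under 0.05 and the median was 0.05. Dapk3, a death-associated protein kinase gene, had 7.24 ± 0.14 in learning and 7.50 ± 0.17 in control animals, a log2 change of -0.27 (limma adjusted p = 0.0756). Cask, a scaffold protein gene with a CaM kinase domain, was at 0.26 and Dclk1, a kinase gene with doublecortin domains, at 0.14 (adjusted p = 0.143 and 0.232). Phka1, a phosphorylase kinase subunit gene, was at 0.11 (adjusted p = 0.285). Camkv, which encodes a kinase-like protein thought to lack activity, was at -0.06 (adjusted p = 0.555).

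Of 15 tested phosphatase genes 0 passed at the brightest probe set, 3 had an unadjusted p under 0.05 and the median was -0.01. The genes for catalytic subunits of protein phosphatases 1 and 2A, Ppp1ca and Ppp2ca, were at -0.08 and -0.13 (limma adjusted p = 0.180 and 0.206). The calcineurin gene Ppp3ca was at 0.07 (adjusted p = 0.249). The regulatory subunit gene Ppp3r1 was at 0.08 (adjusted p = 0.263), but a dimmer probe set of it passed with 0.74, as did 1 of the calcineurin catalytic gene Ppp3cb with 0.41.

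Of 32 tested genes for substrates, anchors and transcriptional targets, 2 rose (6.25%) and 0 fell, 9 had an unadjusted p under 0.05 and the median was 0.07. Both encode glutamate receptor subunits: Grin2a, of the NMDA receptor, had 5.36 ± 0.51 in learning and 3.88 ± 0.40 in control animals, and Gria1, an AMPA receptor subunit that CaM kinase II phosphorylates, had 9.88 ± 0.19 in learning and 9.21 ± 0.17 in control animals (SD, n = 7 each). Their log2 changes were 1.47 and 0.66 (limma adjusted p = 0.00323 each). The control mean of Grin2a lay at the dim cutoff of 3.88, so the size of its change is taken against a level near background, and a second Grin2a probe set had 0.23 without a call. Gria2 at 0.08, the synaptic vesicle substrate gene Syn1 at 0.17 and Kalrn, an exchange factor gene of dendritic spines, at 0.51 did not pass (adjusted p = 0.507, 0.0611 and 0.0680).

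**Figure D5:**
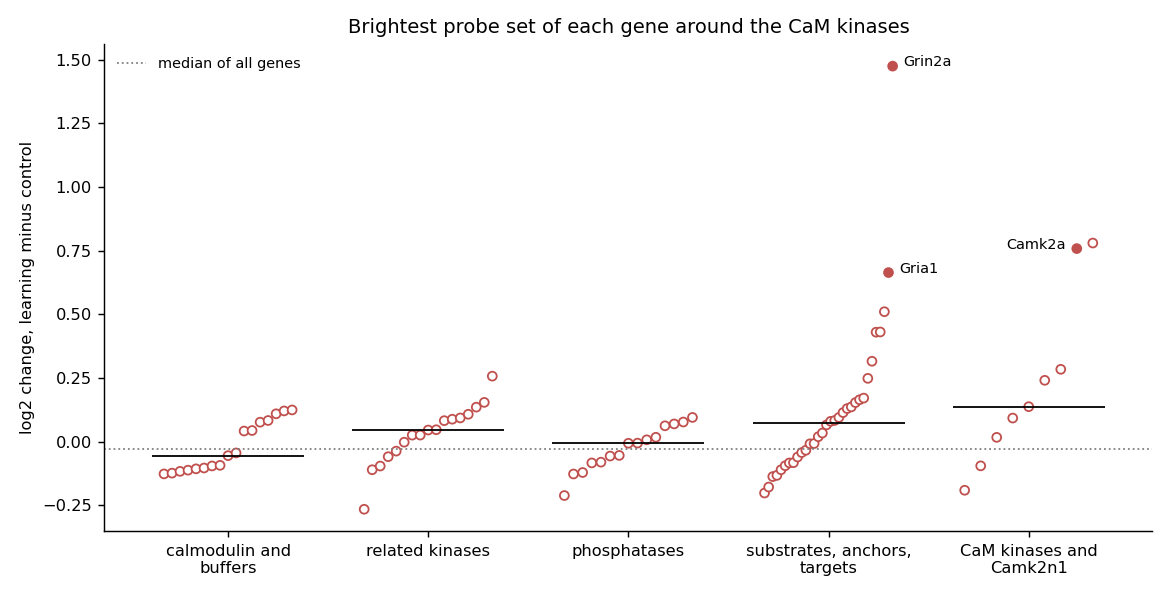
Log2 change, learning minus control (vertical axis), of the brightest tested probe set of each gene in 4 lists around the CaM kinases and in the CaM kinase set itself; points are genes, filled where the adjusted p was under 0.05, black lines are list medians and the dotted line is the median of all genes, -0.03. Only Grin2a, Gria1 and Camk2a are filled.

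Variation between animals of a group was described by correlations over the 14 arrays with group means removed, each point being 1 array with its own hybridization. Camk2a 1388187_at correlated at -0.20 and -0.01 with the other Camk2a probe sets, and those correlated at -0.54 with each other. The probe sets of Camk2b correlated at 0.03 and those of Camk2n1 at 0.22. All of these were low or negative. Of the 78 member pairs, which ran from -0.64 to 0.81, the highest was Camk2a 1368935_at with Camk2n1 1389876_at, the pair of dimmer called probe sets. The probe sets of other genes most like Camk2a 1388187_at belonged to Spaca6, Itga3, Cct6a, Suz12, Ccdc88c and Ranbp9, with r of 0.80 to 0.85 among 7963 candidates whose median r was -0.02 and 95th percentile 0.53. None of the 6 passed the test between the groups. They were picked as the highest of these candidates over 14 arrays, and their r was not tested.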

How the data were processed

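CA3 RNA of 14 rats was labelled and hybridised to Affymetrix RAE230A arrays, per the labels' protocols. The deposited values are log2 levels, and the submitters' processing notes name GCRMA, which corrects background by probe sequence, normalizes and summarises probe sets. The sources used here give no settings, the log2 scale was inferred from the values, and GCRMA can compress or amplify differences near background. Column medians lay between 5.07 and 5.09 and correlations between arrays between 0.983 and 0.995. Arrays have no read depth, and their number limits the precision. Groups and replicate numbers came from sample titles, and the labels call the animals biological replicates. Scan dates were not used here, and batches were not tested.

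Genes came from the platform annotation, with symbols updated by Entrez ID against the RefSeq table of GRCr8. It gave 1 gene for 12783 probe sets, several for 312 and none for 2771, and 12748 matched. The 57 control probe sets and 6346 dim ones were left out. The other 9520 were fitted with lmFit and eBayes (limma 3.58.1, R 4.3.3), learning minus control, with Benjamini-Hochberg adjustment over the 9520. Differences between probe sets of a gene were fitted alike over 1130 pairs. Single values were compared by exact permutation tests over all 3432 assignments of the arrays (Python 3.11.15), and fits were tested on simulated data. "Rose" and "fell" are used of results with an adjusted p under 0.05.

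The members, lists, balances, filters and alternatives were chosen with earlier results of these data known. Named genes are all members, the 4 genes of lowest p and the 2 brightest of each list, and the 6 probe sets most like Camk2a; the dimmer probe sets of Ppp3r1 and Ppp3cb were named after their values were seen. Alternatives were other dim filters, trended and robust moderation, median centring, quantile normalization, array weights, a replicate block, covariates and arrays left out. Those for the balances and single values were added after seeing the data.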

Additional observations from a re-analysis of the deposited data

Results flagged for a closer look

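Among 76 groups of 7 arrays checked for an array far from the rest, 6 were found, and chance gives about 1 in 20. Of the CaM kinase probe sets, only dim ones were among them. Camk2d 1368833_at was highest in learning replicate 1, at 1.64 against a group median of 1.62, and Camkk2 1375025_at in learning replicate 3, at 2.71 against a group median of 2.40. The other 4 were array measures. Control replicate 5 had the highest Gapdh 3'/5' log2 ratio of its group, 0.638 against a median of 0.505. It also had the highest hexokinase 3'/5' log2 ratio, 2.57 against 1.35, and the lowest probe set balance, -3.65 against -3.37. Control replicate 6 had the lowest spike-in level, 8.73 against a median of 9.02. Without control replicate 5 the log2 change of Camk2a 1388187_at was 0.78 and without control replicate 6 it was 0.83, both past the threshold.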

How the results depend on the processing

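Over 31 alternatives the 13 CaM kinase log2 changes gave 396 values, of which 340 kept their direction and side of the threshold, 39 lost a call, 2 gained one and 15 turned sign, the last all at uncalled probe sets. Dim filters, variance moderation and the replicate block cannot alter the size or direction of a change. The count of called CaM kinase probe sets, 3 as reported, was 1 with no dim filter, with the Gapdh or hexokinase ratio as a covariate and with 1 brightest probe set per gene, and 0 with the spike-in level, the dentate marker level or the probe set balance as a covariate and without the 3 arrays farthest from their group. It ran from 1 to 4 with each array left out, being 1 without learning replicates 1, 3, 4, 5 or 6 or control replicates 1 or 3 and 4 without control replicate 6. With the replicate block it was 2 (Camk2a 1388187_at and Camk4). Same-numbered animals correlated at only -0.16 to 0.13, and 1 of 7 correlated best with its own number. Such correlations cannot tell whether animals of the same number were handled together. Camk2a 1368935_at was called in 10 of 29 alternatives and Camk2n1 1389876_at in 14 of 30. The count over the whole array, 243 higher and 76 lower, was 0 and 0 with the probe set balance (843 at an unadjusted p under 0.05), 35 and 4 with the Gapdh ratio, 121 and 22 with the spike-in level, 80 and 17 with the dentate level, 147 and 30 with the hexokinase ratio, 91 and 13 without the 3 arrays and 119 and 39 with no filter. The groups did not overlap on the probe set balance, so the fit with it cannot tell it apart from the group. The cause was not tested.

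Signs turned for Camkk2 with the spike-in level (-0.12), Camk2g with the Gapdh ratio (-0.019) and the probe set balance (-0.16), Camk2b 1375575_at with the dentate level (0.0010), the probe set balance (0.054) and without the 3 arrays (0.0068), and Camk2a 1389824_at with the Gapdh ratio (-0.092) and the spike-in level (-0.13). With single arrays left out, Camk2a 1389824_at ran from -0.093 to 0.18, Camkk1 from -0.011 to 0.048 and the Camk2n1 pair from -0.056 to 0.12, and that pair was -0.038 without the 3 arrays; 0 to 1 CaM kinase pairs passed. Of the single values, the Gapdh ratio difference ran from -0.0747 to -0.0429 and was -0.0550 without the 3 arrays (exact permutation p = 0.0584), the hexokinase ratio ran from -0.30 to -0.047, CA3 markers from 0.079 to 0.16, CA1 from -0.098 to 0.056, dentate from -0.22 to -0.11, astrocyte from -0.017 to 0.012 and microglia from -0.14 to -0.076, and the oligodendrocyte mean was 0.0025 without the 3 arrays.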

Other observations

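Other genes of the wider family and its CREB branch, not named above, did not pass the threshold. Camk1g, the gamma form of CaM kinase I, had 6.24 ± 0.19 in learning and 6.15 ± 0.29 in control animals (SD, n = 7 each), a log2 change of 0.09 (limma adjusted p = 0.732). Pnck, the beta form, had 7.24 ± 0.12 in learning and 7.33 ± 0.10 in control animals, a log2 change of -0.10 (adjusted p = 0.376). Eef2k, a calmodulin-dependent kinase that acts on translation elongation, had 4.82 ± 0.21 in learning and 4.67 ± 0.31 in control animals, a log2 change of 0.15 (adjusted p = 0.538). The CREB gene Creb1 had 6.40 ± 0.44 in learning and 6.32 ± 0.38 in control animals (adjusted p = 0.861). Its activity-dependent targets Bdnf, at 0.25, and Fos, at -0.20, did not pass (adjusted p = 0.296 and 0.451). These genes were named after their values were seen.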
